A study of Mus musculus with 3 samples.

Results

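The cells described here are 245 barcodes of single-cell RNA libraries from mouse cochlea that carried Cd34 and Mpo RNA together, out of 37188 barcodes kept from the whole series. They were chosen by measured values: at least 2 unique molecular identifiers (UMIs, each standing for 1 captured RNA molecule) of Cd34, at least 3 of Mpo, none of F13a1, and fewer than 50 UMIs of Elane and Prtn3 together per 10000 UMIs of the cell. Kept barcodes had at least 500 UMIs, at least 200 genes and at most 20% mitochondrial UMIs. The working label of these cells was Cd34-positive myeloid progenitors, with Cd34, Mpo, Ctsg, Gria3 and Phgdh as markers. Levels of Cd34, Mpo, F13a1, Elane and Prtn3 are therefore descriptions of the choice, and so is any comparison with neighbouring cells that the same thresholds set apart.

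The series holds 3 samples of C57BL/6J cochlea, each 1 library made from 6 mice. The control mice heard no noise, the HHL mice heard 110 dB for 2 h, and the NIHL mice heard 115 dB for 4 h over 3 days, with cochleae taken 6 h after the last exposure; no age is given in the labels. All cells stand in 1 table, and the barcode suffix (1, 2 or 3) matches no sample label. The libraries are called library 1, 2 and 3 after that suffix, were put into no group and were not compared as control, HHL and NIHL. Because each is 1 library, differences between libraries have no replicate check and no p-value, and intervals cover counting error only.

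Blood cells arise from stem and multipotent progenitor cells that divide slowly and hold several lineage programmes open at a low level. Kit marks such cells, and Cd34 marks many progenitors but is by itself no mark of mouse stem cells. As such cells commit to the granulocyte and monocyte branches they switch on Mpo, the enzyme of the primary granule, and then the serine proteases Elane, Prtn3 and Ctsg. In adult mice these steps are known from bone marrow, including the marrow of the skull bones around the ear; which tissue in a dissected cochlea held these cells was not measured.

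The cells numbered 78 of 16883 kept barcodes in library 1, 72 of 9602 in library 2 and 95 of 10703 in library 3. These are 0.462% (exact Clopper-Pearson 95% interval 0.365 to 0.576%), 0.750% (0.587 to 0.943%) and 0.888% (0.719 to 1.08%) of kept barcodes. The order changed with depth, since the rule counts UMIs. When every cell was thinned to 5000 UMIs and the rule was applied afterwards, the shares were 0.498% (45 of 9042 cells), 0.479% (28 of 5843) and 0.396% (29 of 7318), so library 3 went from the highest to the lowest and all 3 intervals overlapped. The cells had medians of 10830, 13768 and 21784 UMIs and 3437, 3792.5 and 4882 genes in libraries 1, 2 and 3. After thinning the median number of genes was 2146, 2060 and 2050.

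Some facts of the libraries touch every value that follows. RNA outside cells reached all barcodes: a UMI of Mpo was present in 30.9%, 29.4% and 57.2% of B cells (610 barcodes with at least 3 Cd79a and 1 Ms4a1 UMIs, median depth 3632 UMIs), and 8.03% of B cells had the 3 Mpo UMIs the rule asks for. Endothelial cells (191 barcodes with at least 2 Cdh5 and 1 Cldn5 UMIs, median depth 8860) make Cd34 themselves, 13.1% of them had 3 Mpo UMIs, and 5 of them met the rule, 4 of these in library 3. Of the 245 cells, 10 held at least 5 UMIs of endothelial genes, 12 held at least 5 of stromal genes, 4 held at least 10 of megakaryocyte genes and 21 held at least 50 of neutrophil granule genes. These sets overlap, so that 39 cells (15, 7 and 17 by library) showed markers of at least 1 of these types and 206 showed none of them. These sets are the markers of other types meant below. Basophil, erythroid, B cell and macrophage genes were not among them. A library 1 cell with 717 UMIs of the basophil genes Prss34 and Mcpt8 is thus among the 206. A doublet caller marked 5, 4 and 8 of the cells. Between 31 and 53 kept barcodes were shared by each pair of libraries, none of them by 2 cells of the rule, although 2 of the 245 barcodes occurred in another library. One cell with 147596 UMIs supplied 11.8% of all UMIs of these cells in library 2, and one with 167423 UMIs supplied 7.12% in library 3.

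The edges of the rule show how graded the choice was. Of 1131 kept cells with at least 2 Cd34 UMIs, 177 had no Mpo, 200 had 1 or 2 Mpo UMIs and 754 had at least 3. Of those 754, 448 had an F13a1 UMI, 61 passed the protease maximum and 245 were left. Just outside the Cd34 threshold stood 81 cells with 1 Cd34 UMI, whose summed Sox4 level was 175 CPM (UMIs of the gene per 1000000 UMIs of the summed cells). Just inside stood 51 cells with 2 Cd34 UMIs, at 419 CPM of Sox4, a transcription factor of early progenitors. For Mpo, 64 cells with 2 UMIs and 33 cells with 3 UMIs had similar Ms4a3 levels of 8.32 and 10.7 CPM; Ms4a3 is a membrane protein of committed granulocyte and monocyte progenitors. Only 5 cells lay just under the protease maximum and 5 just above it. For F13a1, 62 cells with 1 UMI met the rest of the rule. Their Sox4 level was 337 CPM, beside 355.5 CPM in the 245 cells.

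**Figure D1:**
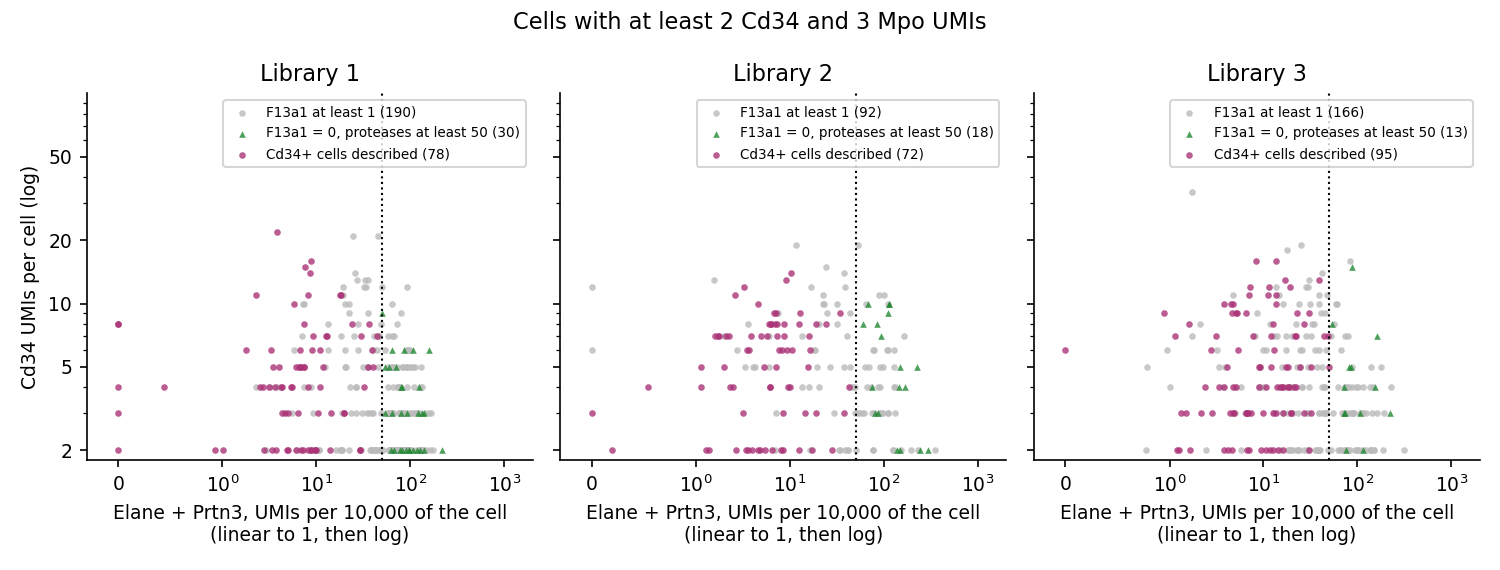
Each point is 1 cell with at least 2 Cd34 and at least 3 Mpo UMIs; the axes show the levels the rule used and the colours show which cells were taken. The 245 cells described lie below the protease maximum of 50 UMIs per 10000, left of the dotted line, and the cells with an F13a1 UMI overlap them on both axes.

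Among the 245 cells some granule genes were higher, and some stem genes lower, in cells with more Mpo. The 70 cells with 3 to 5 Mpo UMIs had 68.2 CPM of Ctsg, the 94 cells with 6 to 19 had 193 CPM and the 81 cells with 20 or more had 958 CPM. Elane, whose maximum the rule set, did not follow that order, with 102, 60.9 and 258 CPM. Flt3, a growth factor receptor of multipotent cells, stood at 133, 96.4 and 46.8 CPM over the same steps, and Hlf, a transcription factor of stem cells, at 121, 62.7 and 34.6 CPM. Kit, the stem cell factor receptor, did not follow it either, with 97.1, 128 and 126 CPM. Median depth was higher over the steps too, at 11472, 14431 and 21138 UMIs. The libraries were pooled here, and library 3 gave 24, 34 and 37 of the cells at these steps. Flt3 and Hlf had their lowest levels in library 3. At least 3 Mpo UMIs, the lowest step, were also present in 8.03% of B cells and 13.1% of endothelial cells. The parts of depth, of library and of free RNA in these differences were not tested.

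The cells were next set beside 2 neighbouring kinds of Mpo-positive cell within each library. The first, 1679 cells, had at least 50 protease UMIs per 10000 and no F13a1 (996, 275 and 408 by library; called Elane-rich). The second, 3629 cells, had at least 1 F13a1 UMI (1643, 416 and 1570; called F13a1-positive). The F13a1-positive cells include the 448 cells named above with at least 2 Cd34 UMIs, and the Elane-rich cells include the 61. F13a1 encodes a clotting factor subunit made in the monocyte line and in megakaryocytes. Of the F13a1-positive cells 75.3%, 72.8% and 78.0% by library held at least 3 UMIs of monocyte genes. For megakaryocyte and erythroid genes the shares were 1.52%, 12.3% and 23.2%. A gene is called higher or lower here when it was at least 2-fold apart the same way in all 3 libraries, with at least 50 CPM in 1 population. Because the rule set these populations apart, the counts are descriptions with no test. Over all genes, 9.31% were higher and 4.74% lower than in Elane-rich cells (389 and 198 of 4177), with a median log2 ratio of 0.34. Against F13a1-positive cells 3.63% were higher and 3.39% lower (151 and 141 of 4164), with a median of 0.08. Median depths were 11728, 13665 and 14506 UMIs in Elane-rich cells and 15902, 19811 and 26958 in F13a1-positive cells, and the part of depth in these comparisons was not tested.

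Genes of stem and multipotent progenitors set the cells apart from both neighbours. Of the 12 genes of that list that could be compared, 11 were higher and none lower against each neighbour, with median log2 ratios of 3.64 and 2.95; Cd34 is one of the 11. Kit was the gene not called against Elane-rich cells, and Cd48, a signalling surface protein found on most progenitors, was the one not called against F13a1-positive cells. The list has 18 names, of which 17 were in the file and all 17 had a UMI. Mecom, Procr, Mycn and Slamf1, which mark stem cells more narrowly, were detected but too low to compare; Mecom had the highest value of these 4, 23.8 CPM in library 3.

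Cd34, a sialomucin of progenitor and endothelial surfaces, stood at 427 (exact Poisson 95% interval 386 to 470), 318 (288 to 351) and 225 CPM (206 to 245) in libraries 1, 2 and 3. In Elane-rich cells it was 9.46, 29.9 and 13.3 CPM and in F13a1-positive cells 34.9, 66.6 and 21.6 CPM. Single cells held 2 to 22 Cd34 UMIs, with a median of 4. The order from library 1 to 3 ran opposite to the median depth, and with a fixed minimum of UMIs the level and the depth cannot be told apart.

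Sox4 was read in nearly every cell and took no part in the rule. It stood at 532, 394 and 264 CPM, against 22.6, 32.6 and 19.1 CPM in Elane-rich cells and 59.3, 82.2 and 32.0 CPM in F13a1-positive cells. After thinning to 5000 UMIs, 82.0% of the cells had a Sox4 UMI, beside 8.36% of Elane-rich and 15.9% of F13a1-positive cells. Unthinned B cells had one in 26.4 to 42.3%, and unthinned endothelial cells in 65.9 to 75.4% by library. Sox4 RNA was thus not limited to these cells. The library values of the cells lay above every value of both neighbours. Sox4 was also among 10 of 4315 genes that tied as most like Cd34 over the 3 populations in 3 libraries (Spearman's rho 0.983 over 9 points). Afap1l1, Aff3, Hoxa7 and Cd93 were 4 others of the tie, named for their ratio to Elane-rich cells, and the points share the rule and the libraries, so this is a description.

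Adgrg1, an adhesion receptor of stem cells and also of other cell types, stood at 344, 279 and 175 CPM, against 10.0 to 15.3 CPM in Elane-rich and 16.7 to 22.0 CPM in F13a1-positive cells. Flt3 stood at 146, 95.9 and 55.3 CPM, against at most 2.41 and 18.7 CPM. Meis1, a homeobox factor that works with HoxA proteins in stem cells, stood at 95.6, 99.9 and 80.4 CPM, against at most 3.44 and 12.2 CPM. Each of these 3 genes was thus higher in every library than in either neighbour. Angpt1, a ligand of the Tek receptor made by stem cells in marrow, stood at 135, 162 and 79.1 CPM, and Adgrl4, an adhesion receptor shared with endothelium, at 227, 206 and 162 CPM. Kit was the least separated of the group. It stood at 161, 147 and 88.9 CPM, with 66.4, 99.7 and 39.6 CPM in Elane-rich cells, 1.47 to 2.42 times as much by library, and 43.9, 52.1 and 22.5 CPM in F13a1-positive cells.

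The leading genes by the smallest of the 3 within-library ratios included Hmga2, Slc22a3, Myct1 and Angpt1 against both neighbours. Hmga2, a chromatin protein of fetal and dividing stem cells, stood at 55.7, 87.9 and 63.8 CPM beside at most 1.37 CPM in Elane-rich and 4.92 CPM in F13a1-positive cells. Ctla2a, a cysteine protease inhibitor, stood at 254, 441 and 339 CPM beside at most 7.66 and 44.9 CPM. Ikzf2, a relative of Ikaros, stood at 174, 166 and 80.8 CPM beside at most 12.3 and 14.7 CPM. The leading lower genes were Elane, Mogat2, Fcnb and Mgl2 against Elane-rich cells and F13a1, Nrg1, Ly6c2 and Vcan against F13a1-positive cells.

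**Figure D2:**
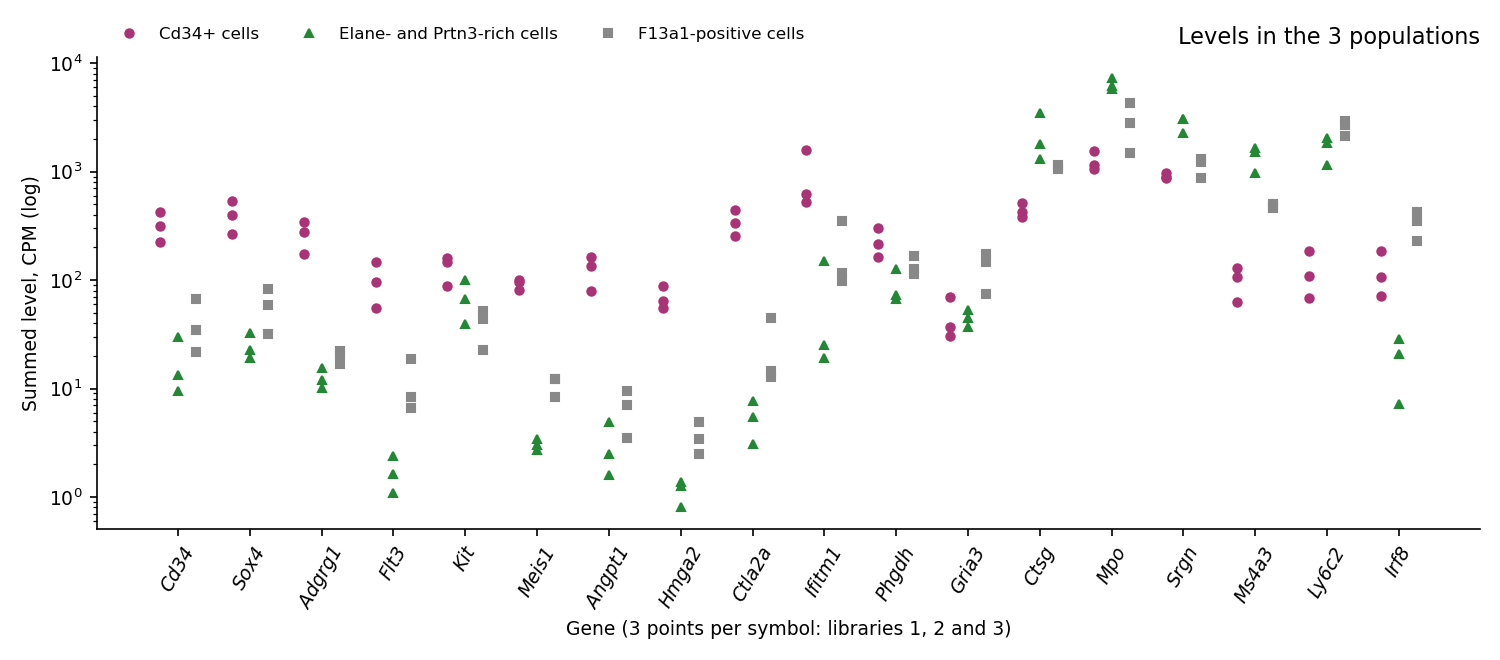
Levels of the 5 label markers and of stem and granule genes, with genes of other myeloid steps, as CPM of summed UMIs on a log axis, 1 point per library and population. Sox4, Adgrg1 and Flt3 of the Cd34+ cells lie above both neighbouring populations in each library, whereas Ctsg lies below both and Gria3 does not stand apart from Elane-rich cells.

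The 3 label markers that the rule did not use gave a mixed picture. Ctsg, cathepsin G of the primary granule, was lower than in both neighbours: 385, 425 and 518 CPM, against 1308, 1788 and 3485 CPM in Elane-rich and 1154, 1119 and 1054 CPM in F13a1-positive cells. Phgdh, the first enzyme of serine synthesis, stood at 213, 162 and 304 CPM. It was 2.40 to 2.95 times the level of Elane-rich cells and 1.43 to 1.83 times that of F13a1-positive cells, which missed the 2-fold rule. Gria3, a subunit of the AMPA glutamate receptor, stood at 70.4, 30.4 and 36.6 CPM, near the 53.5, 44.4 and 37.2 CPM of Elane-rich cells and below the 175, 148 and 74.8 CPM of F13a1-positive cells. A Gria3 UMI was present in 15.5% of thinned cells, 17.8% of thinned Elane-rich and 39.0% of thinned F13a1-positive cells. Of the 18 glutamate receptor genes listed, 5 had any UMI in the cells, and besides Gria3 none exceeded 8.93 CPM, the level of Grik5 in library 3. Ctsg and Gria3 thus were not called higher in these cells than in either neighbour, and Cd34 and Mpo, which the rule used, are no check of the label. The cells are called Cd34+ cells below.

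Genes of the primary granule were present at low levels. Of 12 listed, none was higher against either neighbour, 10 were lower against Elane-rich and 7 against F13a1-positive cells, with median log2 ratios of -2.67 and -1.70; Mpo, Elane and Prtn3 in that list were set by the rule. Prtn3, proteinase 3, nevertheless stood at 918, 619 and 1048 CPM and had a UMI in 84.5% of thinned cells. Elane, neutrophil elastase, stood at 171, 109 and 160 CPM with a UMI in 36.4%. Ms4a3 stood at 106, 62.3 and 130 CPM beside 968, 1513 and 1636 CPM in Elane-rich cells, and was at 0 in more than 1 in 2 cells, with a UMI in 104 of the 245. Srgn, the proteoglycan that packs granule proteases, stood at 962, 896 and 869 CPM. Calr, a chaperone needed to fold Mpo, stood at 1153, 1083 and 1185 CPM and was not called against either neighbour. Of 10 genes listed for the granulocyte lineage, 7 were lower than in Elane-rich cells. Among them were the transcription factors Gfi1 (19.97, 12.0 and 6.38 CPM) and Cebpe (47.3, 12.8 and 15.7 CPM). Elane and Prtn3 are on that list too, so their part of the count was set by the rule.

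Genes of the monocyte line were mostly lower than in F13a1-positive cells. The list summed to 1095, 732 and 1144 CPM, below the 2313, 2137 and 1526 CPM of Elane-rich and the 5888, 6013 and 5338 CPM of F13a1-positive cells. Single genes differed from the sum: against Elane-rich cells 5 of 8 compared genes were higher and 1 lower (median log2 ratio 1.85), and against F13a1-positive cells 11 of 12 were lower (median -2.00), F13a1 itself by the rule. Irf8, the transcription factor that directs the monocyte and dendritic branch, stood at 186, 71.1 and 106 CPM, against 7.12 to 28.5 CPM in Elane-rich and 229 to 425 CPM in F13a1-positive cells. B cells make Irf8 too. Ly6c2, a surface protein of the monocyte line, stood at 185, 68.7 and 109 CPM, against 1144 to 2048 CPM in Elane-rich and 2152 to 2955 CPM in F13a1-positive cells. Ms4a6c, a membrane protein of monocytes, stood at 124, 82.3 and 174 CPM. Ccr2, the receptor by which monocytes leave the marrow, stood at 35.7, 9.59 and 59.96 CPM beside 210 to 245 CPM in F13a1-positive cells.

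Transcription factors were called in both directions. Of 22 factors compared with Elane-rich cells 11 were higher and 4 lower, and of 21 compared with F13a1-positive cells 6 were higher and 5 lower. Myc, Gata2, Hoxa9, Meis1, Erg and Egr1 were higher against both. Gata2, a factor of stem cells and of the basophil and mast cell line, stood at 148, 88.7 and 60.4 CPM beside at most 4.93 and 12.5 CPM. Runx1, needed for blood stem cells to form, stood at 287, 232 and 190 CPM and was higher than in Elane-rich cells. Cebpe and Id2 were lower against both neighbours. Spi1 (PU.1), Myb and Cebpa are broad factors of early myeloid cells. Spi1 at 168, 114 and 137 CPM and Myb at 392, 387 and 276 CPM were not called, and Cebpa, at most 31.5 CPM, was too low to compare.

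Most of the compared receptors were not called against either neighbour, but calls were more frequent than among all genes. Over all genes 9.31% were higher and 4.74% lower than in Elane-rich cells. Against F13a1-positive cells these shares were 3.63% and 3.39%. Of 13 compared with Elane-rich cells, Flt3, Il6st and Il17ra were higher and Csf2ra and Ifngr1 were lower. Il6st, the shared signalling chain of the IL-6 family, stood at 69.4, 24.8 and 53.2 CPM beside at most 5.79 CPM. Csf2ra, which binds GM-CSF, stood at 39.9, 27.2 and 30.2 CPM beside 108 to 175 CPM. Against F13a1-positive cells Kit and Flt3 were higher and Csf1r, Csf2ra, Il6ra and Ccr2 were lower, of 14 compared. Among 16 homing and adhesion genes Cd34, Cd93 and Adgrg1 were higher against both neighbours, and the integrins Itgam and Itgb2 of mature myeloid cells were lower than in Elane-rich cells.

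Immediate-early genes, which answer stimulation or handling within minutes, were high in the Cd34+ cells. Against Elane-rich cells 11 of 14 were higher, with a median log2 ratio of 1.66, and against F13a1-positive cells Fosb, Egr1 and Nr4a1 were higher of 14, with a median of 0.84. Fos stood at 515, 655 and 516 CPM beside 75.9 to 91.2 CPM in Elane-rich and 178 to 280 CPM in F13a1-positive cells. Nr4a1, an orphan nuclear receptor, stood at 272, 303 and 193 CPM, with a UMI in 61.1% of thinned cells beside 7.40% and 17.6%. Ccl4, a chemokine with the same direction against both neighbours, stood at 168, 110 and 120 CPM beside at most 14.0 and 50.9 CPM. None of the 14 compared genes was 2-fold apart between any pair of libraries. The part of cell dissociation in these levels was not tested.

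Few cell cycle genes were called, and those higher were regulators of the first gap phase (G1). Of 14 S phase genes none was called against Elane-rich cells and 1 of 14, Ccne1, was lower than in F13a1-positive cells. Of 19 and 20 genes of G2 and M phase none was called, with medians of -0.37 and -0.65. Mki67, a protein of dividing nuclei, stood at 411, 179 and 437 CPM with a UMI in 49.8% of thinned cells; one was also present in 26.6 to 44.0% of unthinned B cells, so this share gives no count of dividing cells. Of 10 brakes and G1 cyclins, 3 were higher against each neighbour: Ccnd1, Ccnd2 and Cdkn1a against Elane-rich cells and Ccnd1, Ccnd2 and Cdk6 against F13a1-positive cells. Cdkn1a (p21), an inhibitor of cyclin-dependent kinases, stood at 197, 137 and 139 CPM beside 10.7 to 18.1 CPM in Elane-rich cells. Cdk6, a kinase that drives exit from G1, stood at 844, 662 and 459 CPM beside 156 to 295 CPM in F13a1-positive cells.

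Few biosynthesis genes were called. Over all genes 9.31% were higher than in Elane-rich cells, and the counts below lie near that share, so they are not read as a trait of these lists. Phgdh was the only 1 of 9 compared serine and one-carbon genes higher than in Elane-rich cells, and none of 9 was higher than in F13a1-positive cells. Psat1, the next enzyme of that pathway, stood at 54.7, 67.9 and 77.4 CPM beside 22.1, 37.0 and 45.5 CPM in Elane-rich cells and was not called. Of 15 nucleotide synthesis genes Cad and Paics, enzymes of pyrimidine and purine synthesis, were higher than in Elane-rich cells. Of 15 ribosome assembly genes Fbl and Dkc1, which modify ribosomal RNA, were higher, with a list median of 0.88 beside 0.34 for all genes. None of these was called against F13a1-positive cells.

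The Cd34+ cells differed among themselves in the genes of other blood lineages. A cell was counted for a lineage with at least 3 UMIs summed over a few defining genes, which were picked after their values had been seen. Monocyte genes were present in 109 of 245 cells, basophil and mast cell genes in 51, megakaryocyte and erythroid genes in 48 and lymphoid genes in 30. No lineage was present in 71 cells, 1 in 114, 2 in 56 and 3 in 4. The counts depend on depth, so each cell was also thinned to 5000 UMIs and counted with at least 1 UMI, which left out 6 shallow cells. On that scale monocyte genes were present in 48.5%, megakaryocyte and erythroid genes in 30.5%, basophil genes in 27.2% and lymphoid genes in 17.6% of 239 cells. The same shares were 13.9%, 10.1%, 18.6% and 1.10% in Elane-rich cells and 78.3%, 17.0%, 10.9% and 1.36% in F13a1-positive cells. At 3 UMIs after thinning the shares were 19.7%, 8.79%, 11.7% and 7.11% in the Cd34+ cells.

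The lineages were not combined evenly, given here as a description. Of the 42 thinned cells with lymphoid genes, 66.7% had monocyte genes, beside 44.7% of the 197 without. Of the same 42, 3 (7.14%) had basophil genes, beside 31.5% of those without lymphoid genes. Basophil genes went with megakaryocyte and erythroid genes instead, which were present in 30 of 65 such cells (46.2%) and in 24.7% of the others. Before thinning, 0 of 30 cells with lymphoid genes were counted for basophil genes; 3 counts of 30 would be 10.0%.

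**Figure D3:**
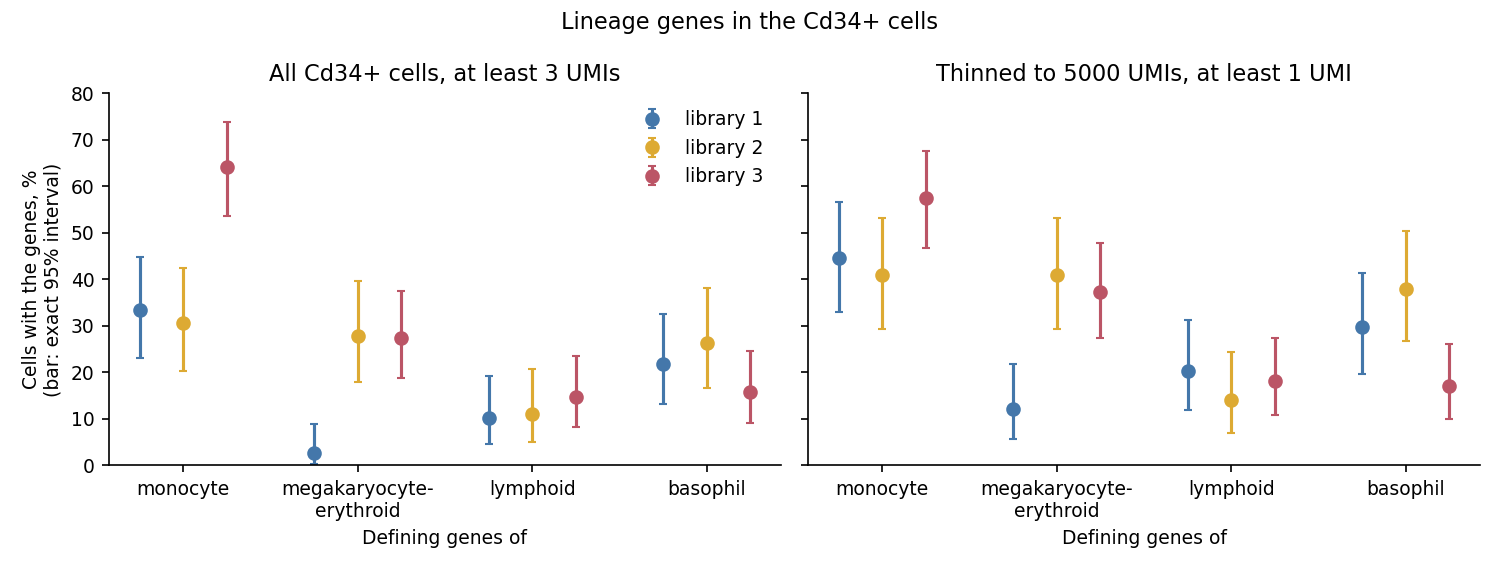
Percent of Cd34+ cells with the defining genes of each lineage, by library, with exact 95% intervals as bars: on the left all cells and at least 3 UMIs, on the right cells thinned to 5000 UMIs and at least 1 UMI. On the left megakaryocyte and erythroid genes were present in 2.56% of library 1 cells and in 27.8% and 27.4% of those of libraries 2 and 3; monocyte genes were most frequent in library 3, at 64.2%.

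Lymphoid RNA was mainly Dntt, the enzyme that adds bases at antigen receptor joints, at 190, 72.7 and 97.4 CPM. In Elane-rich cells Dntt was at most 3.53 CPM and in F13a1-positive cells at most 12.1 CPM, and it had a UMI in 0.571 to 2.10% of B cells, so it lay above the free RNA. A Dntt UMI was present in 57 of the 245 cells, and the highest cell held 46. Rag1 and Rag2, which cut antigen receptor genes, were at most 1.28 CPM, and Cd3e of T cells was at 0 in all 3 libraries. The B cell factor Pax5 was at most 1.05 CPM. Ebf1, a B lineage factor also made in stromal cells, was at 16.8, 55.1 and 26.4 CPM.

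Basophil and mast cell RNA was spread unevenly. Gata2 and Cpa3, a mast cell protease, were read in 119 and 69 of the 245 cells; endothelial cells have Gata2 as well, in 49.3 to 51.9% of barcodes, while B cells had it in 0 to 1.37%. Cpa3 stood at 186, 201 and 71.0 CPM beside at most 15.3 and 47.7 CPM in the neighbours. The basophil proteases Prss34 (377, 56.7 and 65.9 CPM) and Mcpt8 (437, 46.4 and 50.2 CPM) came in library 1 mostly from 1 cell, which held 95.8% and 89.7% of their UMIs. That cell had 10921 UMIs, of which 717 were Prss34 or Mcpt8, with 2 Cd34 and 40 Mpo UMIs and no Kit. Epx of eosinophils was at 0 in all 3 libraries.

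Dendritic genes were present only in part. Bcl11a, a factor of lymphoid and dendritic precursors, stood at 188, 142 and 138 CPM, and Tcf4, which directs plasmacytoid dendritic cells but is made by many cells, at 267, 237 and 170 CPM; both were higher than in both neighbours. Siglech, at most 1.60 CPM, and Xcr1 and Cd209a, at 0, which mark finished dendritic cells, were not detectable above 3 UMIs in any library. Macrophage genes C1qa, C1qb and C1qc were at most 11.9 CPM.

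The libraries were compared within the Cd34+ cells, calling genes at least 2-fold apart. Library 2 against library 1 gave 107 higher (2.97%) and 109 lower genes (3.02%) of 3604. Library 3 against library 1 gave 114 higher (3.1%) and 196 lower genes (5.32%) of 3681, and library 3 against library 2 gave 111 higher (3.19%) and 112 lower genes (3.22%) of 3481. The median log2 ratios over all genes were -0.12, -0.07 and 0.06. Scaling by TMM factors, which centre on genes that keep their ratio, moved these medians to 0.00, 0.07 and 0.06 and gave 131 higher and 78 lower, 180 and 125, and 118 and 119 genes, so the balance of higher and lower genes against library 1 depended on the scaling. No library can be read as a noise group.

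Interferon response genes stood higher in library 3. Interferons are secreted signals of viral and danger sensing; they switch on genes whose promoters hold the interferon-stimulated response element, built on repeats of GAAA. In library 3, 12 of 16 compared genes of a list of 25 were higher than in library 1 and 13 of 16 higher than in library 2, and none was lower; 3.1% and 3.19% of all genes were called higher in these comparisons. The list medians were 1.33 and 1.54 (log2). Between libraries 2 and 1 none of 8 compared genes was called. The counts were 12 of 15 in both comparisons without the 39 cells that showed markers of other types. Thinning before the rule was applied left 4 genes to compare, of which 3 were higher in both comparisons. Of all 1630 genes compared in that setting, 99 were higher in library 3 than in library 1 and 109 higher than in library 2. A gene was compared only with at least 50 CPM in either library of the pair. Isg15, Irf7, Oasl2, Rtp4, Gbp2, Igtp and Irgm1 reached that in library 3 alone. Such genes could be called higher there but not lower, so the counts depend in part on that minimum. Without a minimum, all 25 genes summed to 2628, 2407 and 5775 CPM in libraries 1, 2 and 3.

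Isg15, a ubiquitin-like protein, stood at 12.6 (6.52 to 22.0), 26.4 (18.2 to 37.0) and 151 CPM (136 to 168). Library 3 lay above both others, 12.0 times library 1 (6.79 to 23.5) and 5.74 times library 2 (4.01 to 8.47). A UMI was present in 9, 19 and 66 cells, and after thinning in 9.46%, 12.7% and 43.6%. Irf7, the factor that amplifies interferon production, stood at 10.5, 3.20 and 58.7 CPM, 5.58 times library 1 (2.95 to 11.9) from 10, 4 and 138 UMIs. Ifi27l2a, a small mitochondrial protein induced by interferon, stood at 66.2, 34.4 and 308 CPM. The same step was seen for Oasl2, an oligoadenylate synthetase relative (19.97, 17.6 and 62.9 CPM), and for Rtp4, a chaperone of receptors (22.1, 8.79 and 57.4 CPM). Cxcl10, a chemokine outside the list that interferon gamma induces, stood at 19.97, 5.59 and 96.1 CPM.

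Guanylate-binding proteins and immunity-related GTPases, which attack vacuoles of microbes in the cell, were among the higher genes. Gbp2 stood at 11.6, 17.6 and 52.7 CPM and Gbp7 at 49.4, 48.0 and 120 CPM. Igtp stood at 24.2, 13.6 and 56.6 CPM and Irgm1 at 25.2, 24.8 and 51.9 CPM. In all 4 genes library 3 was the highest and libraries 1 and 2 were within 2-fold of each other. The membrane proteins that restrict viruses had the highest levels: Ifitm3 at 398, 579 and 1570 CPM, and Bst2 (tetherin) at 147, 99.1 and 313 CPM. Ly6e (1053, 698 and 922 CPM), Irf9 and Ifi47 were not called in either comparison.

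Ifitm1 was the 1 gene of the list higher than in both neighbours in each library. It stood at 519, 622 and 1569 CPM, against 19.003, 25.2 and 149 CPM in Elane-rich and 98.3, 117 and 348 CPM in F13a1-positive cells. Library 3 was 3.02 times library 1 (2.75 to 3.33) and 2.52 times library 2 (2.33 to 2.73). Of the other listed genes, Irf7 and Gbp2 were higher than in Elane-rich cells, and Zbp1, a sensor of viral nucleic acid, was lower than in F13a1-positive cells. The Irf7 call was weak in library 2, at 3.20 CPM beside 1.10 CPM in Elane-rich cells. Without the cells that showed markers of other types it was 1.08 CPM there.

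The promoters of 4 of the genes higher in library 3 are shown. They were taken from those that hold the motif GAAANNGAAA, on either strand, in capitals. They are the 150 bases before the start site, 5′ to 3′ on the gene's strand, from RefSeq on GRCm38.p6, an earlier build than the GRCm39 of the count file. The windows are Isg15 at chr4:156200819-156200968 (minus strand), Gbp2 at chr3:142620513-142620662 (plus), Igtp at chr11:58199406-58199555 (plus) and Irgm1 at chr11:48871421-48871570 (minus).
Isg15: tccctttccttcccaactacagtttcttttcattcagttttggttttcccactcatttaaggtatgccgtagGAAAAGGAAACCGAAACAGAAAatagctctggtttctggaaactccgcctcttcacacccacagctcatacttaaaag
Gbp2: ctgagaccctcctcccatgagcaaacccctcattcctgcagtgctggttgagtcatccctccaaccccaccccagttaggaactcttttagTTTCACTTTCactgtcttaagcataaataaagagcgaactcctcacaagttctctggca
Igtp: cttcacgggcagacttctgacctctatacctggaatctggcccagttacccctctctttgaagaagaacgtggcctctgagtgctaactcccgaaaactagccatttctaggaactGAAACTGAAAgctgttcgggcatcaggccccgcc
Irgm1: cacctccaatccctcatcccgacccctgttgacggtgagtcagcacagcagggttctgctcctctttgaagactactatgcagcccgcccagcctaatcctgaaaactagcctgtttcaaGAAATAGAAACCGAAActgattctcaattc
In Isg15 3 overlapping matches begin 78 bases before the start, and in Irgm1 2 overlapping matches begin 30 bases before it. Gbp2 holds 1 match 59 bases before the start, read on the opposite strand, and Igtp 1 match 34 bases before it. Over windows from 250 bases before to 50 after the start, the motif was present in 12 of the 19 list genes that matched the RefSeq table (63.2%), in 1 of 14 stem and progenitor genes, in none of 11 heat shock genes and in 1079 of 27025 genes in all (3.99%). Of 10 matched genes that were higher in library 3 than in both others, 7 held it, and Irf7, Ifitm1 and Oasl2 did not. The whole list had it in 12 of 19, so the motif did not set the higher genes apart within the list. What raised these genes in library 3 was not tested. A match is a string of letters and not a measured binding site.

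The higher interferon genes of library 3 were not limited to the Cd34+ cells. Over 22 genes of the list (without Ifitm1, Ifitm3 and Ly6e, the 3 most abundant), the median Cd34+ cell had 5.48, 4.86 and 15.2 UMIs per 10000. Elane-rich cells had medians of 2.93, 2.21 and 9.26, F13a1-positive cells 4.75, 3.70 and 14.4, B cells 9.50, 6.33 and 34.9, endothelial cells 18.98, 10.5 and 52.9, and all kept barcodes 7.40, 6.68 and 22.3. Library 3 was highest in each of these populations. The part of free RNA in the level of the Cd34+ cells was not tested; an Isg15 UMI was present in 5.71, 7.69 and 23.6% of B cells.

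**Figure D4:**
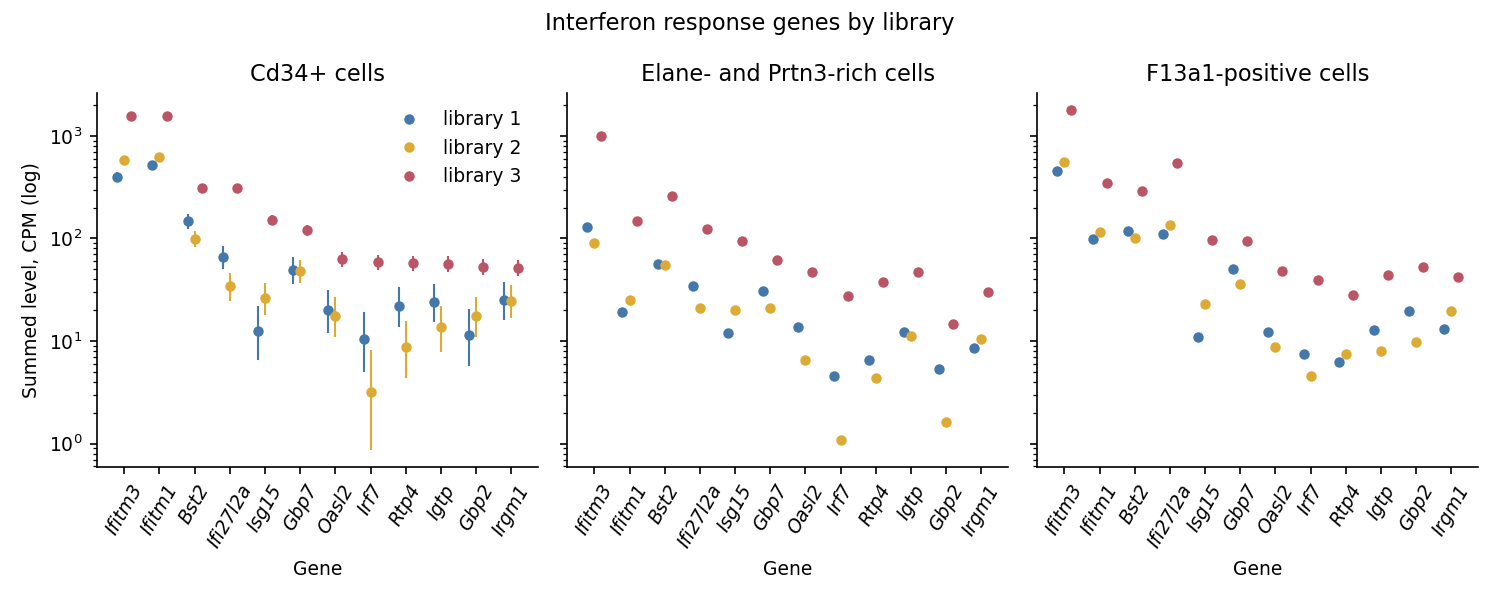
Interferon response genes higher in library 3 of the Cd34+ cells, as CPM of summed UMIs on a log axis, 1 point per library; bars in the Cd34+ cells are exact Poisson 95% intervals. The library 3 point is the highest for each gene shown in all 3 populations, at 151 CPM for Isg15 in the Cd34+ cells.

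Heat shock genes, which encode chaperones for damaged or newly made proteins, also stood highest in library 3. Of 10 compared, 5 were higher than in library 2 (median log2 ratio 1.02) and 1 than in library 1 (median 0.72), and none was lower. Hspa8, the constitutive Hsp70, stood at 1440, 1316 and 2543 CPM, just short of the 2-fold rule. Hspd1, the chaperonin of mitochondria, stood at 502, 372 and 790 CPM, and Cacybp, a partner of Hsp90, at 171, 143 and 333 CPM. Hsph1, which exchanges nucleotide on Hsp70, was the gene called against both others, at 56.8, 57.5 and 129 CPM. The stress-induced Hspa1a and Hspa1b were low, at most 25.5 CPM. Per cell, the list's median was 68.5, 64.8 and 102 UMIs per 10000. Both neighbours had their highest Hspd1 level in library 3 as well (188, 215 and 585 CPM in Elane-rich, 355, 367 and 760 CPM in F13a1-positive cells).

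Genes of G2 and M phase were lowest in library 2. Of 18 compared, 9 were higher in library 3 than in library 2 (median log2 ratio 0.99), and 3 of 14, Mki67, Cenpf and Hmmr, were lower in library 2 than in library 1. Hmmr, a spindle protein, stood at 79.9, 27.2 and 119 CPM, and Ube2c, which serves the destruction of mitotic cyclins, at 144, 101 and 255 CPM. Per cell, the list's median was 13.7, 4.16 and 20.5 UMIs per 10000. None of 13 S phase genes was called in any of the 3 comparisons. Elane-rich cells too had their lowest Mki67 level in library 2 (574, 196 and 358 CPM), as did F13a1-positive cells (555, 351 and 566 CPM).

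**Figure D5:**
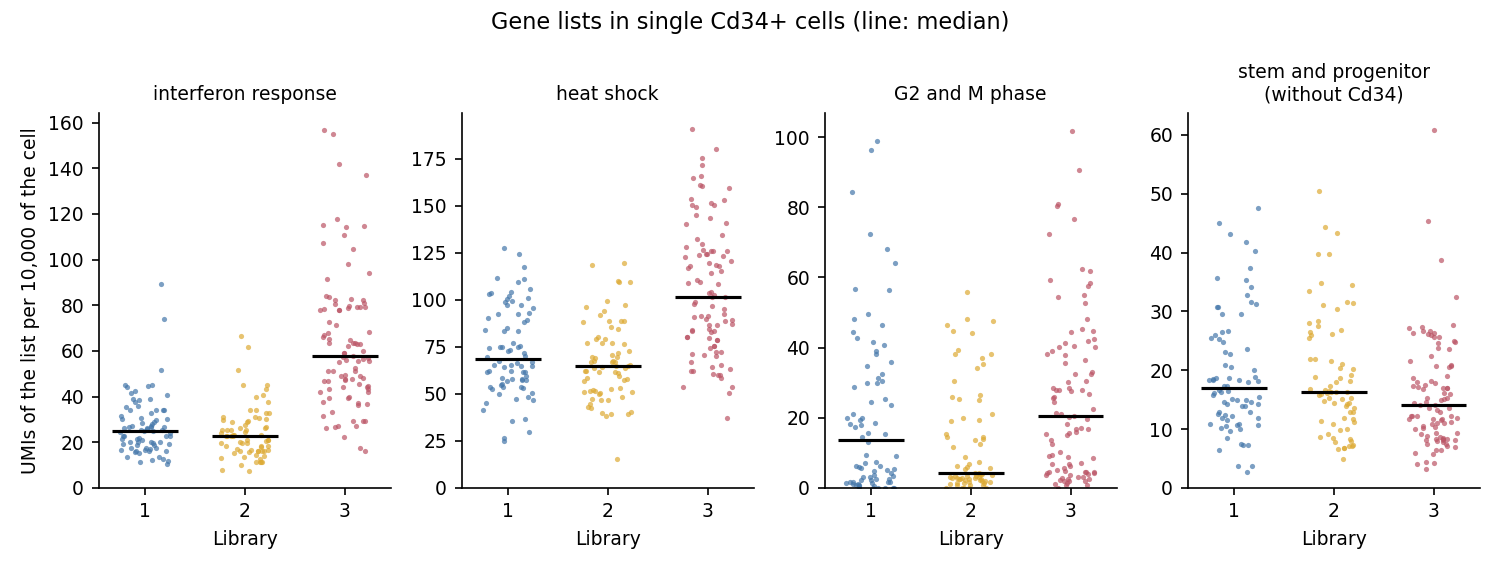
Summed level of 4 gene lists in each Cd34+ cell, as UMIs per 10000, by library, with the median as a line. The interferon and heat shock lists are highest in library 3, at medians of 57.6 and 102, and the G2 and M list is lowest in library 2, at 4.16; the stem list, without Cd34, has close medians of 17.0, 16.3 and 14.2.

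Stem and progenitor genes leaned lower in library 3, with few of them called. Against library 1, library 3 had Flt3, Hlf and Sox4 lower and Ly6a higher, of 12 compared (median -0.63, beside -0.07 for all genes). Against library 2, of 11 compared 2 were lower and 1 higher (median -0.50, beside 0.06 for all genes). Ly6a (Sca-1), a stem cell surface protein that interferon also induces, stood at 112, 43.2 and 244 CPM. Hlf stood at 83.0, 104 and 37.4 CPM, and Flt3 in library 3 at 0.378 times library 1 (0.296 to 0.484). Angpt1 was lower in library 3 than in library 2. The rule's fixed Cd34 minimum takes more of the deeper cells, and the cells of library 3 were the deepest. Thinned to 5000 UMIs before the rule was applied, 2 of 9 compared genes were higher and 4 lower in library 3 than in library 1. The median was -0.92, beside 0.01 for all genes. In that setting 99 of all 1630 compared genes were higher and 142 lower. The part of depth in these differences was not tested. In single cells the list without Cd34 overlapped widely, with quartiles from 12.2 to 25.4, 11.6 to 26.1 and 9.21 to 20.7 UMIs per 10000.

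Megakaryocyte and erythroid genes were lowest in library 1. Of 7 compared 5 were higher in library 2 and of 6 compared 5 were higher in library 3, Car2, Itga2b, Pf4 and Zfpm1 in both, Vwf in library 2 and Car1 in library 3. Single cells carried much of it: Pf4, platelet factor 4, stood at 6.31, 4298 and 712 CPM, and 1 cell gave 99.8% of the library 2 value, the deepest one, with 5366 Pf4, 4 Cd34 and 3 Mpo UMIs. Without the cells that showed markers of other types, 3 of 5 compared genes were higher in library 2 and 2 of 4 in library 3 than in library 1. When cells were thinned before the rule was applied, which left 45 and 29 cells in libraries 1 and 3, the log2 ratio of library 3 over 1 turned to -1.37 for Car2 and -0.95 for Itga2b. Car2, a carbonic anhydrase of red cell precursors, stood at 86.2, 281 and 238 CPM, and Car1 at 0, 47.2 and 91.9 CPM. Elane-rich cells had the same step in Car1 (0.321, 32.3 and 36.0 CPM) and F13a1-positive cells too (4.404, 84.7 and 121 CPM). Haemoglobin RNA, from red cells and free in the droplets, moved with it: Hbb-bs stood at 30.5, 6084 and 1660 CPM. Its part in the share of cells counted for this lineage was not tested, and haemoglobin genes were not among the defining genes.

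Genes of later neutrophils were highest in library 1. All 10 secondary and tertiary granule genes were lower in library 3 than in library 1, and 8 of 10 were lower in library 2. Ltf (lactoferrin) stood at 916, 205 and 207 CPM, and S100a8, a calcium-binding protein that fills neutrophils, at 11314, 5993 and 3085 CPM. Of the 21 cells with at least 50 UMIs of neutrophil granule genes, 13 were in library 1. Without the 39 cells that showed markers of other types, some of them picked by these same genes, none of 5 compared granule genes was called between libraries 3 and 1. With every cell given the same weight, all 10 were lower in library 3. An S100a8 UMI was in 97.7 to 100% of B cells and an Ltf UMI in 53.7, 21.0 and 41.8% of them. These levels are therefore not read as expression by the Cd34+ cells.

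Basophil genes were lower in library 3: 4 of 5 compared were lower than in library 1, Prss34, Mcpt8, Cpa3 and Gata2. For Prss34 and Mcpt8 the library 1 cell described above carried the difference: with at least 3 Cd34 UMIs asked for, which leaves it out, the log2 ratios of library 3 over 1 turned to 2.19 and 1.59. Gata2 in library 3 was 0.407 times library 1 (0.321 to 0.518) and Cpa3 0.382 times (0.307 to 0.474). After thinning, basophil genes were present in 29.7%, 38.0% and 17.0% of cells, with intervals of 19.7 to 41.5%, 26.8 to 50.3% and 10.1 to 26.2%. Monocyte genes gave 44.6%, 40.8% and 57.4% after thinning, with overlapping intervals, whereas the unthinned shares were 33.3%, 30.6% and 64.2%. Megakaryocyte and erythroid genes gave 12.2%, 40.8% and 37.2% after thinning, and lymphoid genes 20.3%, 14.1% and 18.1%. At 1 UMI and equal depth library 1 was lowest for megakaryocyte and erythroid genes, with intervals of 5.72 to 21.8%, 29.3 to 53.2% and 27.5 to 47.8% by library. At 3 UMIs and equal depth the shares were 0%, 9.86% and 14.9%. Their intervals were 0 to 4.86%, 4.06 to 19.3% and 8.39 to 23.7%, and those of libraries 1 and 2 overlapped. These intervals cover counting error only, since cells are not replicates of a library. Unthinned Elane-rich cells were lowest in library 1 too, at 0.402%, 6.18% and 6.86% with at least 3 UMIs.

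Some genes of the ear and of stroma were read at low levels. Coch, made by fibrocytes of the cochlea, stood at 4.20, 68.7 and 59.5 CPM, and in F13a1-positive cells at 25.3, 75.5 and 89.9 CPM, lowest in library 1 in both. Dcn, decorin of fibroblasts, stood at 236, 213 and 154 CPM and had a UMI in 6.28% of thinned cells, and 12 cells in all held at least 5 UMIs of stromal genes.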

How the data were processed

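The authors deposited 1 matrix of raw UMI counts per gene and barcode, written by Cell Ranger 7.1.0 per the file headers, on GRCm39 per the submitters' processing notes. The 3′ libraries are 10x, per the labels' protocols; cell calling and pooling settings: not given in the sources used here. Members and gene lists were chosen with earlier results of these data known. The file has 39092 barcodes, with 132576349, 93048140 and 146324872 UMIs by suffix; 0 columns of other samples were present. UMIs were summed per library and population (951449, 1251183 and 2351483 in the Cd34+ cells) and given as CPM with exact Poisson 95% intervals; ratios have exact conditional binomial intervals and shares exact Clopper-Pearson intervals. Precision is limited by these counts, and a gene at 0 was set to 3 counts. Genes were compared with at least 50 summed UMIs and 50 CPM in 1 side and called at 2-fold with over 3 UMIs in the higher side; no p-value was computed. Doublets (scrublet, expected rate 6%; 5.63, 4.69 and 4.73% called) were kept and left out in an alternative. Genes named in the text are the label and rule genes, list members by level or by difference between libraries, leading genes and those most like Cd34, and members whose presence or absence is stated. The scripts were tested on simulated counts. Python 3.11.15, numpy 2.4.6, pandas 2.3.3, scipy 1.17.1, scanpy 1.11.5, matplotlib 3.10.9, R 4.3.3, edgeR 4.0.16 (TMM factors) and DESeq2 1.42.0 (size factors) were used.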

Additional observations from a re-analysis of the deposited data

How the results depend on the processing

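No paired analysis was possible because each group is 1 library. Doublets left out, 1000 UMIs as minimum, another Cd34, Mpo or protease threshold, thinning, no gene minimum, other fold limits, TMM or DESeq2 size factors, cells with markers of other types left out and equal weight per cell were tried, the last 2 chosen after seeing the data. The share of library 1 moved to 0.344% with Cd34 at least 3 and 0.3495% with Mpo at least 5. Library 2 moved to 0.583% with either and 0.479% thinned, and library 3 to 0.701% with Mpo at least 5 and 0.396% thinned. The 216 genes called between libraries 2 and 1 became 138 with Mpo at least 5, 126 without cells of other types' markers and 100 thinned. Without a gene minimum the counts were 2135, 2274 and 2283 for libraries 2 and 1, 3 and 1, and 3 and 2, in place of 216, 310 and 223. They were 765, 1194 and 831 at 1.5-fold and 86, 69 and 59 at 3-fold. Against Elane-rich cells 587 became 1778 and against F13a1-positive cells 292 became 937 without a minimum. Of 614 values for single genes 462 kept within counting error, 134 moved and 18 reversed, 7 more having both libraries at 3 UMIs or fewer; of 108 lineage shares 67 kept within counting error and 41 moved. Reversed log2 ratios of library 2 over 1 were Dntt 0.29 (Mpo at least 5), Mcpt8 1.86 (Cd34 at least 3) and 2.59 (thinned) and Prss34 3.43 and 5.68 in the same settings. For library 3 over 1, thinning gave Car2 -1.37 and Itga2b -0.95, and Mcpt8 was 1.59 and 2.22 and Prss34 2.19 and 4.33 (Cd34 at least 3, thinned). For library 3 over 2, Pf4 was 6.35, 0.31 and 1.95 (Mpo at least 5, other types out, thinned) and Ptn 4.81, 3.36, 1.37 and 6.06. In thinned or stricter sets fewer cells remained; the cause was otherwise not tested. DESeq2 factors gave 124 higher and 79 lower, 176 and 127, and 117 and 116 genes.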
